A study of Homo sapiens with 4 samples.

Results

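The promoters of the histone genes were followed in an ATAC-seq experiment, which reads open chromatin from the places where a transposase can insert into DNA. The members were the consensus peaks within 1000 bp of an annotated start of any protein-coding gene whose symbol begins with H1-, H2AC, H2BC, H3C or H4C in GENCODE release 44 lifted to GRCh37 (hg19). The annotation held 69 such genes, of which 48 had at least 1 peak, and 66 of the 139872 peaks of the series were members. The rule itself used gene symbols and positions and no measured value, but it was chosen with earlier results of these data known. The libraries came from 1 cell line, SEM, which was derived from a B precursor leukemia with an MLL rearrangement and here expressed dCas9-KRAB, a nuclease-dead Cas9 joined to a repressor domain. In 2 libraries the cells carried sgFLT3-DE-1, a guide against a HOXA9-bound distal enhancer of FLT3, and in 2 libraries they carried the non-targeting guide sgNT. All 4 libraries carried dCas9-KRAB, so the comparison is of the guide and not of the repressor. The labels do not say whether replicates came from separate cultures, so p-values measure the spread between these libraries only.

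Histone proteins package DNA into nucleosomes. The core histones H2A, H2B, H3 and H4 form the particle, and the linker histone H1 binds the DNA where it enters and leaves. Most of their genes are replication-dependent: they are present in many copies that lie in clusters, have no introns, are switched on together in S phase by the coactivator NPAT, and give mRNAs that end in a stem-loop bound by SLBP and not in a poly(A) tail. The rule also took in linker histone genes that do not follow this program. Among these are H1-10, which is expressed outside S phase, and the germ cell genes H1-6, H1-7 and H1-8, so the members are called histone genes here and not replication-dependent histone genes.

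On chromosome 6 the annotation held 51 of the genes, and 46 of them had a peak. The 5 without one were H2AC1 and H2BC1, a pair known from testis, the testis linker histone H1-6, H1-1 and H4C7. Away from the clusters, 2 of 6 genes had a peak, namely H4C16, a lone H4 gene on chromosome 12, and H1-10 on chromosome 3, while H1-7, H1-8 and H2BC12L were among those with none. By type, a peak was found for 5 of 10 H1 genes, 11 of 16 H2A genes, 12 of 17 H2B genes, 10 of 13 H3 genes and 10 of 13 H4 genes.

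None of the 12 genes on chromosome 1 had a peak in the table, so their accessibility was not analysed here and levels could not be compared between the chromosome 1 and chromosome 6 clusters. At 1q21, which holds 10 of them, the nearest peak lay between 177.6 and 217.0 kb from each gene. Of the 21 other coding genes within 500 kb of that cluster, 1 had a peak within 1000 bp of a start (4.76%), whereas 13258 of 20107 coding genes outside the histone set did (65.9%). At 1q42, which holds H2AC25 and H2BC26, 9 of 14 other coding genes had one (64.3%), and around the chromosome 6 genes 27 of 39 did (69.2%). Part of 1q21 is an inverted duplication. The promoter windows of H4C14, H3C14, H2AC19, H3C15 and H4C15 there held no 50-base stretch that occurs once in the genome, and those of H4C14 and H4C15 were identical. For H2BC21, H2AC20 and H2AC21 in the same cluster, however, every 50-base stretch of the window was unique, and these genes had no peak either.

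The promoter sequences below are shown because each carries elements known from its histone type. Apart from H4C4, each lies at the start of a gene whose peak is described further on. The printed stretch is set by the start and can run past the ends of the peak, as it does at H1-4, whose H1 box lies outside the peak, and at H4C11 and H4C12. They were read from GRCh37, are written 5′ to 3′, and end at the base before the Ensembl canonical start unless stated. Capitals mark TATAAA (the TATA box), CCAAT (the CCAAT box), ATTTGCAT (the octamer bound by POU2F1), AAACACA (the H1 box) and GGTCCG (part of the H4 element bound by HINFP), on either strand. The divergent promoter of H2BC11 and H2AC11 covers all bases between both starts (chr6:27100575-27100821, plus strand), so that H2BC11 is read to the left and H2AC11 to the right.
H2BC11/H2AC11: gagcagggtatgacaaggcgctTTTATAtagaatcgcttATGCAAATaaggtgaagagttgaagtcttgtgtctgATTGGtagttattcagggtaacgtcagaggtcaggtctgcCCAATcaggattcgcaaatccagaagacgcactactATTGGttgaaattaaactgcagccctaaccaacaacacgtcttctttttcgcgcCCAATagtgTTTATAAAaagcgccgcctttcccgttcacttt
The promoter of the linker histone gene H1-4 (chr6:26156407-26156556, plus strand) holds the H1 box, a CCAAT box and a TATA box.
H1-4: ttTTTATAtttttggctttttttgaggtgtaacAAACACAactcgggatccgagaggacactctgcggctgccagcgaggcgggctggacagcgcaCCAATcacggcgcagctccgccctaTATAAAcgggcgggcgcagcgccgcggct
That of H2AC4 (chr6:26033847-26033996, minus strand) holds the octamer.
H2AC4: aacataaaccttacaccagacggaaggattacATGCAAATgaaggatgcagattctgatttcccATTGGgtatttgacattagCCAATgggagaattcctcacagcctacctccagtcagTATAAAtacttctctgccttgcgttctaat
H3C2 (chr6:26032328-26032477, minus strand) has a pair of CCAAT boxes.
H3C2: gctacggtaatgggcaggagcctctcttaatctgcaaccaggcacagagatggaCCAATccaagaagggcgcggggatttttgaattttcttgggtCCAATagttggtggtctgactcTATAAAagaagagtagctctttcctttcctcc
H4C4 (chr6:26189341-26189490, minus strand) has the HINFP element and no CCAAT box in these bases.
H4C4: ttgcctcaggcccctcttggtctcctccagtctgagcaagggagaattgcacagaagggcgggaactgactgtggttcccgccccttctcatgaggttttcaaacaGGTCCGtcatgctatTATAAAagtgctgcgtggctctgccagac
The promoters of H4C11 (chr6:27791720-27791869, plus strand) and H4C12 (chr6:27799339-27799488, minus strand) are near-identical copies, which differed at 2 of 150 positions.
H4C11: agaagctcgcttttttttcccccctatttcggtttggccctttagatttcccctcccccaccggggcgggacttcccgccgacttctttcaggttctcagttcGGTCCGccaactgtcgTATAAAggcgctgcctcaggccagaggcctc
H4C12: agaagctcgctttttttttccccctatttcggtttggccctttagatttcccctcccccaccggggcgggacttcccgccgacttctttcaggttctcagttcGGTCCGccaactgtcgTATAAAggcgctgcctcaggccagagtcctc

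Each motif was searched on both strands of the window from 250 bases before to 50 bases after the canonical start. TATAAA was found in 45 of 69 histone windows (65.2%), against 9.81% of 20152 windows of all coding genes, and 38 genes had it on the transcribed strand between 20 and 42 bases before the start. CCAAT occurred in 57 histone windows (82.6%), against 36.0% of all coding windows. It was in 16 of 16 H2A and 13 of 13 H3 windows but in 4 of 13 H4 windows. The octamer was in 12 of 16 H2A and 13 of 17 H2B windows and in no H1, H3 or H4 window, against 1.58% of all coding windows. AAACACA was in 8 of 10 H1 windows, against 4.22% of all coding windows. GGTCCG was in 11 of 13 H4 windows, against 14.6% of all coding windows. Genes in a divergent pair share part of their window, so these counts are not of independent sequences, and a match does not show that the factor was bound.

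**Figure D1:**
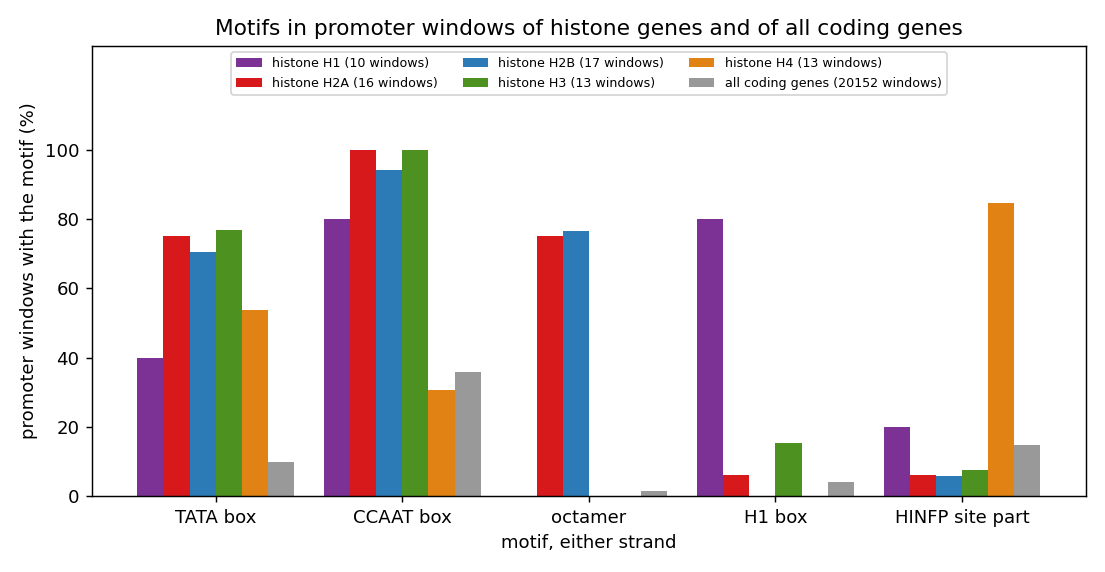
Share of promoter windows (percent, y axis) that held each of 5 motifs on either strand, for the 5 histone types and for all coding genes (grey). The octamer was seen in H2A and H2B windows, the H1 box mainly in H1 windows and the HINFP element mainly in H4 windows, where it reached 84.6%.

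Every one of the 48 genes with a peak had a peak over an annotated start. The strongest such peak of each gene is called its main peak. At H2BC6, H3C6, H3C12 and H4C16 it covered an annotated start other than the canonical one, around which the motif windows were set. Extents of these main peaks are measured from the start they cover. Since neighbours can share a peak, the 48 genes had 40 main peaks. These were between 100 and 938 bp long, with a median of 439 bp, against 362 bp for the 12431 tested peaks over a start of any coding gene. Levels are given as normalised CPM, counts per unit of library size (CPM) after scaling with TMM factors. The median main peak had 18.6 normalised CPM over the 4 libraries, against 16.7 for all coding start peaks, and 43.1 CPM per kb of peak against 45.6. Histone starts were therefore neither at the top nor at the bottom of coding starts in SEM cells, with the median main peak at percentile 54.3 by level and 46.5 per kb. Their median GC content was 53.5%, below the 67.2% of all coding start peaks.

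The position of the open stretch differed with the histone type. In all 5 H1 genes the peak reached further into the gene than upstream, with between 79 and 118 bp before the start and between 102 and 355 bp after it. The H2A genes had the longer part upstream in 9 of 11 cases and the H2B genes in 10 of 12, with medians of 365 and 328 bp upstream and 185 and 151.5 bp downstream. In H3 genes 5 of 10 had the longer part upstream, and in H4 genes 3 of 10. In 7 cases an H2A and an H2B gene were transcribed away from each other from under 1 common peak. Of the 14 genes in these pairs 13 had the longer part upstream. A common peak holds all bases between both starts, which are upstream of both genes, so this count is largely set by the definition. The longer part was also upstream in 6 of the 9 H2A and H2B genes with a main peak of their own. It was upstream in 8 of the 25 H1, H3 and H4 genes, and these differences were not tested. The starts of these pairs lay between 194 and 251 bp apart. The pairs were H2BC4/H2AC6, H2BC11/H2AC11, H2BC12/H2AC12, H2BC13/H2AC13, H2AC14/H2BC14, H2AC15/H2BC15 and H2AC17/H2BC17, and the peak of the last also covered a start of H3C12.

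**Figure D2:**
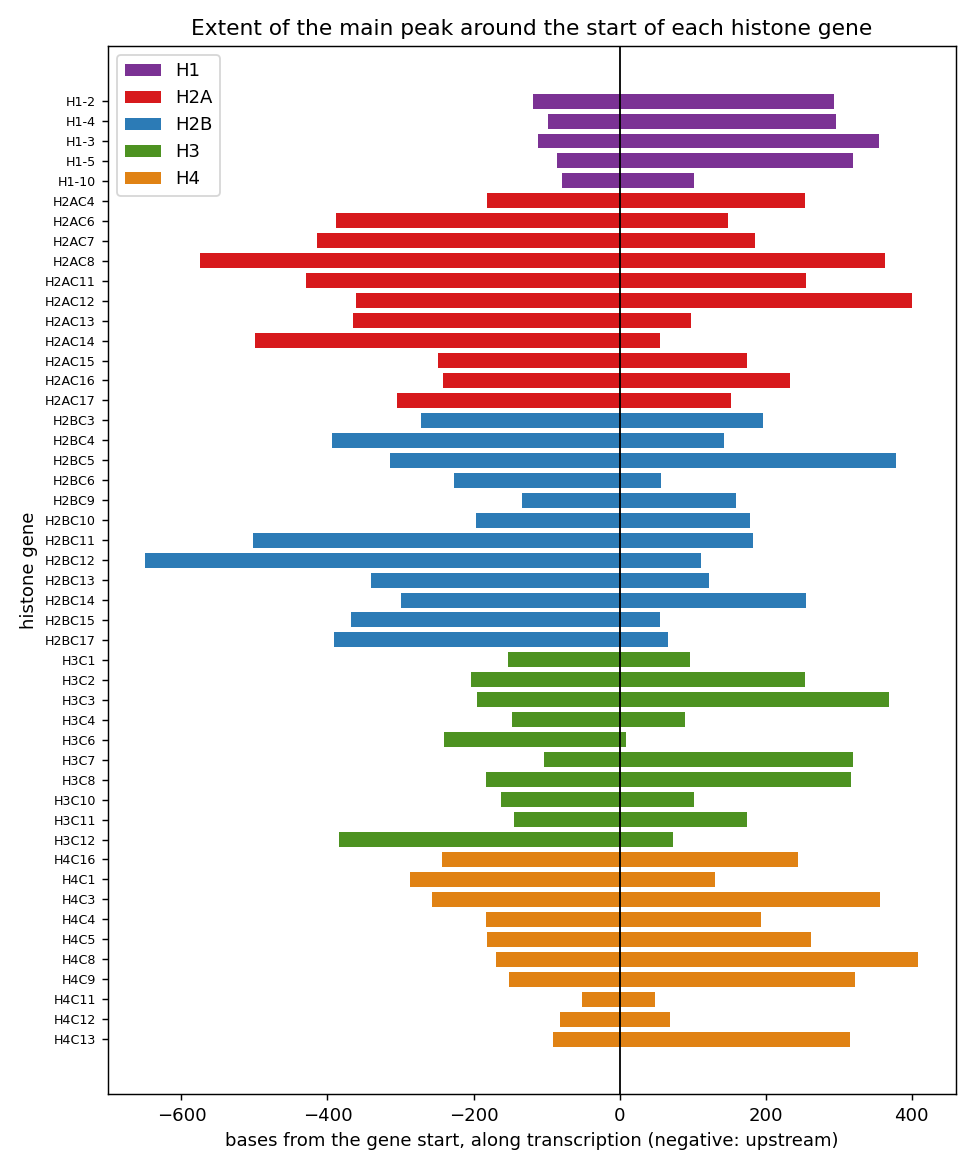
Extent of the main peak around the start of each of the 48 histone genes with a peak, in bases along transcription (x axis, negative is upstream), coloured by type. H1 peaks lie mostly downstream of the start, and the longest upstream stretch, 650 bp at H2BC12, belongs to a peak shared with H2AC12.

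Per kb of peak, the H2B and H2A main peaks were the most accessible and those of H4 and H1 the least. Over all libraries the medians were 53.4 CPM per kb for H2B, 47.6 for H2A, 45.2 for H3, 35.6 for H4 and 32.2 for H1. H2B ranked first and H1 last in each of the 4 libraries, with 42.6 and 50.3 CPM per kb for H2B in the sgFLT3-DE-1 libraries and 51.2 and 69.3 in the sgNT libraries, and 21.8 and 34.6 for H1 in the sgFLT3-DE-1 libraries and 33.8 and 40.5 in the sgNT libraries. H2A and H3 changed places between libraries, so their order was not stable. The H1 median rested on 5 peaks that spread widely. Over all libraries H1-4 had 48.2 and H1-2 47.4 CPM per kb, near the H2A median. H1-5 had 32.2, H1-3 31.7 and the shallow peak of H1-10, which is expressed outside S phase, 24.8. The last place of H1 thus depended on few genes, and the order without H1-10 was not worked out. Peaks shared by a pair count under both types, and genes are not replicates, so no test was made between types. The 7 shared main peaks had a median of 54.3 CPM per kb, and the 33 with a single histone gene 41.4.

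**Figure D3:**
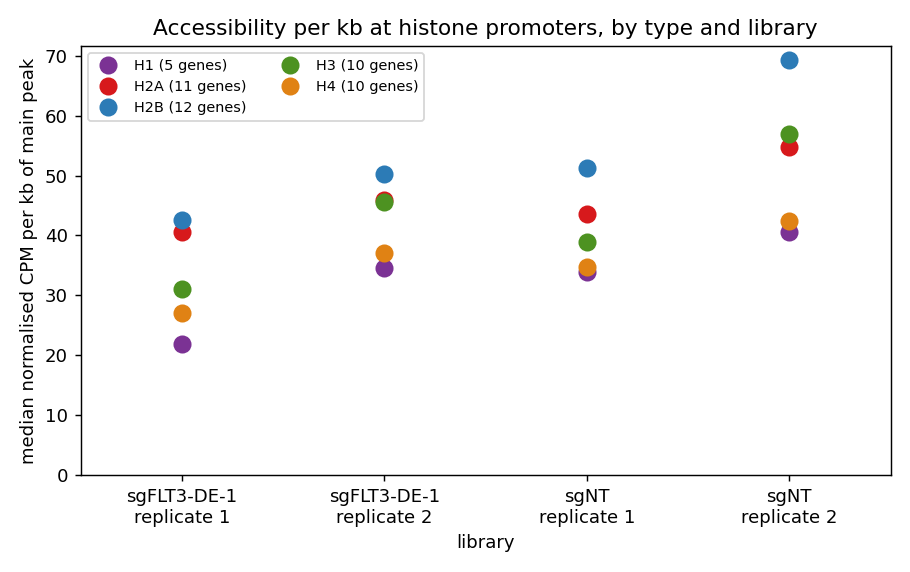
Median accessibility of the main peaks per kb (normalised CPM per kb, y axis) by histone type in each library, sgFLT3-DE-1 at the left and sgNT at the right. H2B is highest and H1 lowest in every library, and each type is lowest in sgFLT3-DE-1 replicate 1 and highest in sgNT replicate 2.

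The histone peak with the highest level (CPM per peak) was the divergent one of H2BC11 and H2AC11, printed above, which drives a core H2B and a core H2A gene. Per kb of peak, that of H2BC10 was higher (70.8 CPM per kb, against 68.0 for H2BC11 and H2AC11). The H2BC11 and H2AC11 peak (chr6:27100392-27101076, 685 bp) held 35.5 and 40.9 normalised CPM in the sgFLT3-DE-1 libraries, against 53.1 and 56.9 in the sgNT libraries. Both sgFLT3-DE-1 libraries were below both sgNT libraries. The log2 fold change was −0.52 (SE 0.25, unadjusted p = 0.048 in edgeR's quasi-likelihood test), and it did not pass the adjustment over all 82558 tested peaks (adjusted p = 1.00).

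Among H3 genes the highest peak was that of H3C2 (chr6:26032074-26032531). It had 25.6 and 26.5 CPM in the sgFLT3-DE-1 libraries and 30.7 and 32.0 in the sgNT libraries, a log2 fold change of −0.26 (SE 0.26). The groups did not overlap, but the difference was close to its standard error. The highest H1 peak was that of H1-2 (chr6:26056405-26056816), with 13.3 and 21.01 CPM in the sgFLT3-DE-1 libraries and 19.1 and 24.8 in the sgNT libraries, and here the groups overlapped. H4C16 on chromosome 12 had the highest H4 peak and a second of similar size, each over a different annotated start. The canonical start of H4C16 lies under the second peak and not under the first. The first (chr12:14922861-14923347) had 32.7 and 25.9 CPM in the sgFLT3-DE-1 libraries and 24.4 and 28.4 in the sgNT libraries. The second (chr12:14923681-14924169) had 21.9 and 19.5 CPM in the sgFLT3-DE-1 libraries and 28.7 and 26.4 in the sgNT libraries. The groups overlapped at the first peak and not at the second, whose log2 fold change was −0.42 (SE 0.26, unadjusted p = 0.12 in edgeR).

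**Figure D4:**
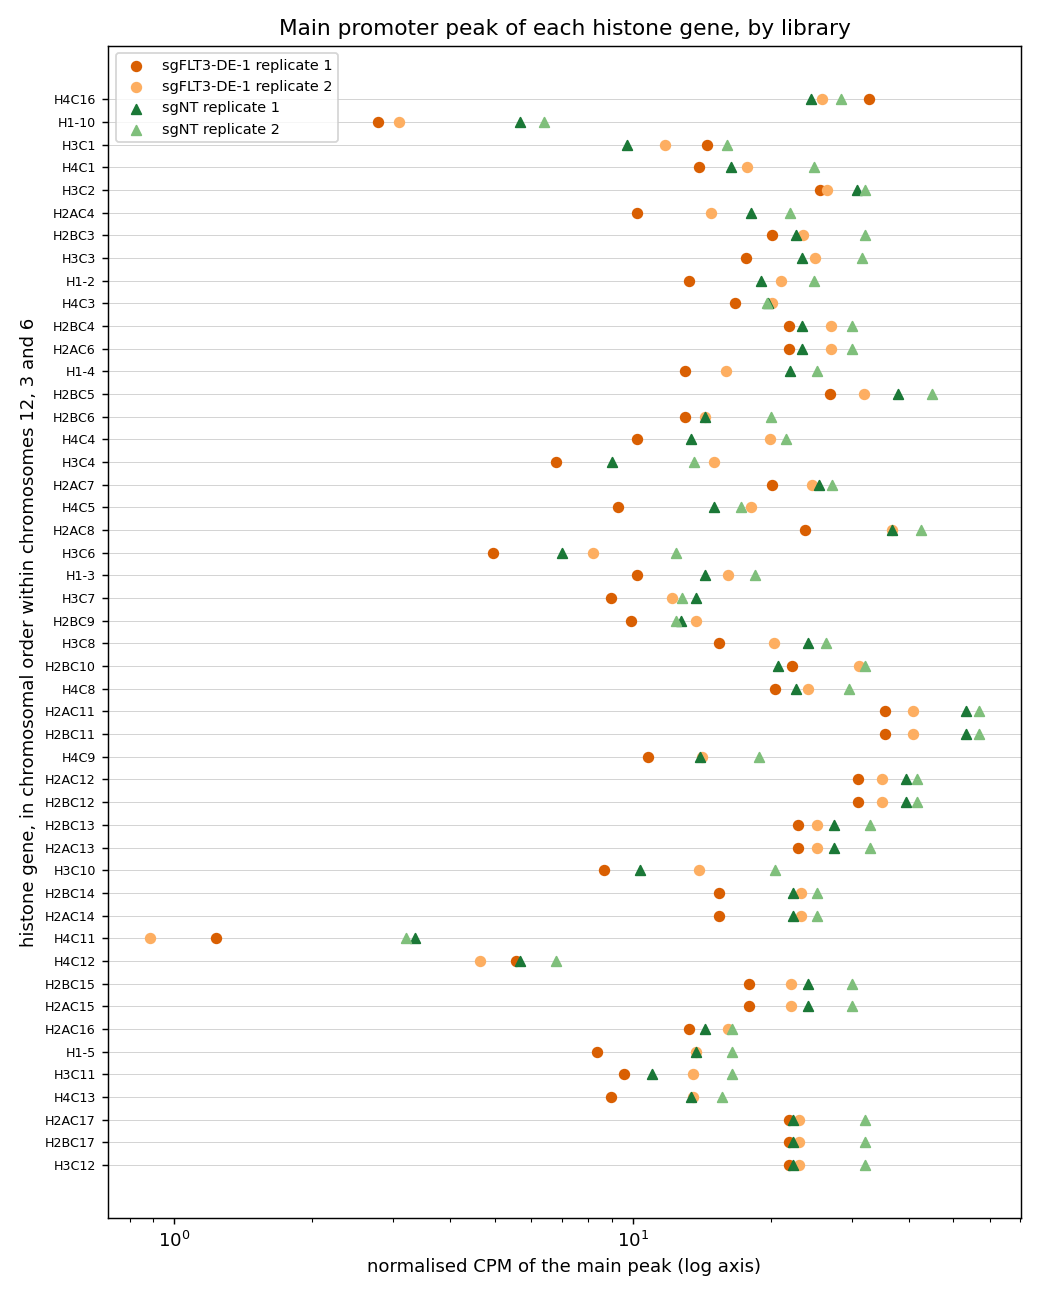
Normalised CPM of the main peak (x axis, log scale) of each histone gene in 2 sgFLT3-DE-1 libraries (circles) and 2 sgNT libraries (triangles). Averaged over libraries, the main peaks lie between 8.14 and 46.6 CPM apart from the lower ones of H4C11, H4C12 and H1-10, and sgFLT3-DE-1 replicate 1 is at the left end for most genes.

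Comparing sgFLT3-DE-1 with sgNT asks whether repression at the FLT3 enhancer came with a change at the histone promoters. No histone peak passed FDR 0.05 in edgeR's quasi-likelihood test, where 2 of 82558 peaks did over the whole table (0.00242%), and every adjusted p among the 62 histone peaks that passed the filter on low counts was 1.00. The 4 peaks left out by the filter lay near H3C6, H4C9 and H4C11. At an unadjusted p under 0.05, 5 histone peaks were lower and 0 were higher, where 1.07% of all tested peaks were lower and 0.827% higher. DESeq2 called 0 histone peaks at FDR 0.05, where 1 of all tested peaks passed, and limma-voom 0, where 3 passed. At an unadjusted p under 0.05 DESeq2 had 0 histone peaks and limma-voom 4. The shares of all tested peaks at that threshold were not worked out for these tools, so these counts have no background.

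Although no single promoter passed, the estimates lay on the low side. Of the 62 peaks, 53 had a log2 fold change below 0 and 9 above, with a median of −0.29 and a range of −1.62 to 0.72. Over all tested peaks 48.1% were below 0 with a median of 0.01, and over the 20234 tested peaks at coding promoters 61.4% were below 0 with a median of −0.08. In 21 of the 62 peaks both sgFLT3-DE-1 libraries were below both sgNT libraries, and in 0 were they above, where 13.8% and 13.7% of all tested peaks were apart in these directions, and 22.2% and 8.13% of coding promoter peaks. Promoter peaks lie in neighbouring stretches and share libraries, so they are not independent of each other.

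The libraries themselves did not separate by guide. Summed over all 66 peaks, the histone promoters had 765 and 980 CPM in the sgFLT3-DE-1 libraries and 961 and 1186 CPM in the sgNT libraries. The second sgFLT3-DE-1 library was thus above the first sgNT library. In bulk libraries, fewer cells with an open promoter and less open chromatin per cell cannot be told apart. The shift rested on single libraries in size, though its median stayed below 0. That median was −0.13 without sgFLT3-DE-1 replicate 1 and −0.13 without sgNT replicate 2, where coding promoter peaks had −0.06 and −0.09. It was −0.59 without sgFLT3-DE-1 replicate 2 and −0.48 without sgNT replicate 1, where coding promoter peaks had −0.19 and −0.11. The distance to coding promoters was thus small without sgFLT3-DE-1 replicate 1 or without sgNT replicate 2. The total counts in peaks were 3670758 and 4831164 in the sgFLT3-DE-1 libraries and 3321429 and 2683477 in the sgNT libraries. The library with the highest histone signal was the shallowest. The deepest, sgFLT3-DE-1 replicate 2, was however above sgFLT3-DE-1 replicate 1 and sgNT replicate 1 in histone signal. A link to depth was not tested. GC content moved with the estimates at promoters. When each library was corrected for the GC content of the peaks, the median of coding promoter peaks was 0.00 and that of the histone peaks −0.30.

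**Figure D5:**
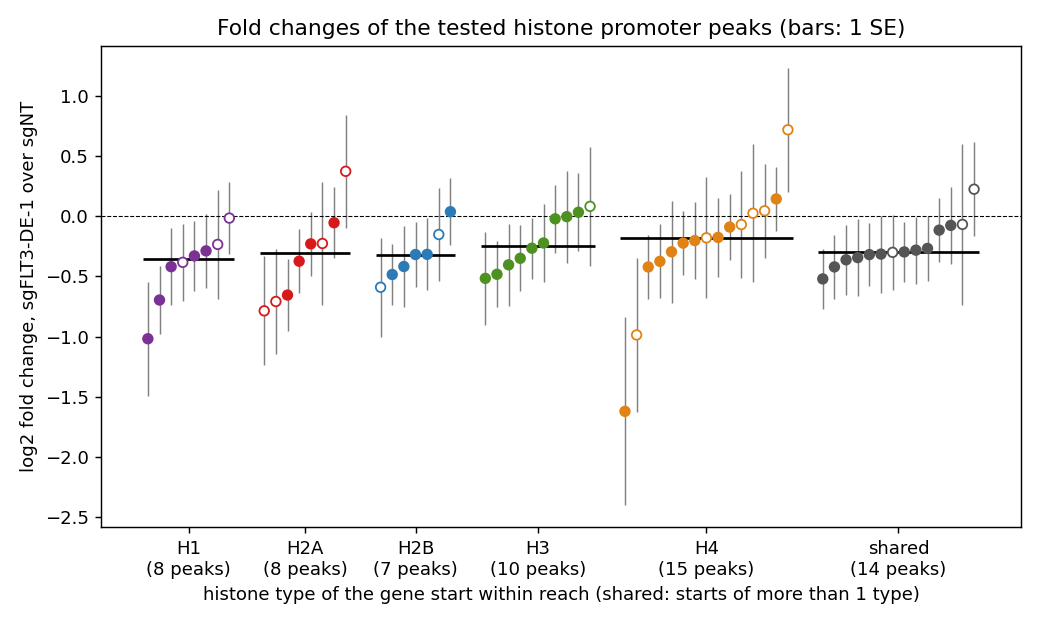
Log2 fold change of sgFLT3-DE-1 over sgNT (y axis, bars are 1 SE) for the 62 tested histone promoter peaks, grouped by the type of the gene start within reach. Filled points cover a start, open points do not, and black lines are medians, all 6 of which lie below 0.

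The estimates were similar across histone types. For the main peaks the median log2 fold change was −0.42 for H1, −0.30 for H2A, −0.31 for H2B, −0.29 for H3 and −0.26 for H4, and the estimate was below 0 in 5 of 5, 11 of 11, 11 of 12, 9 of 10 and 9 of 10 peaks. Differences between types were not tested. The chromosome 6 members with peaks lie in 3 stretches. The first (chr6:26020526-26286800) had a median over its main peaks of −0.30, the second (chr6:27099708-27115284) −0.37 and the third (chr6:27775586-27862350) −0.32. Other peaks inside the same stretches, which were no members, numbered 15, of which 9 were tested, with a median of −0.12 and 6 below 0. Their median level was 3.46 CPM, so these estimates carry more counting error.

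Of the 5 histone peaks with the smallest p, the H2BC11/H2AC11 peak was given above. H1-4, which encodes the linker histone H1.4, had the smallest. Its peak (chr6:26156459-26156853) held 12.97 and 15.9 CPM in the sgFLT3-DE-1 libraries and 22.1 and 25.2 in the sgNT libraries (log2 fold change −0.70, SE 0.28, unadjusted p = 0.019 in edgeR). For H2AC4, a core H2A gene (chr6:26033593-26034027), the values were 10.2 and 14.8 CPM in the sgFLT3-DE-1 libraries and 18.0 and 22.0 in the sgNT libraries (log2 fold change −0.65, SE 0.30, unadjusted p = 0.037 in edgeR). The groups were apart at both, and so they were at the 2 remaining peaks, which were shallow. H1-10, the replication-independent linker histone H1.10 (chr3:129035028-129035208), had 9 and 14 counts in the sgFLT3-DE-1 libraries and 17 and 16 in the sgNT libraries, a log2 fold change of −1.02 (SE 0.47, unadjusted p = 0.041 in edgeR). A further H1-10 peak, 401 bp from a start, had 3.40 and 5.75 CPM in the sgFLT3-DE-1 libraries and 4.34 and 6.81 in the sgNT libraries, which overlapped (log2 fold change −0.23, SE 0.46, unadjusted p = 0.61 in edgeR).

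H4C11 (chr6:27791818-27791917) had the lowest estimate, −1.62 on the log2 scale (SE 0.78, unadjusted p = 0.047 in edgeR), from 4 and 4 counts in the sgFLT3-DE-1 libraries and 10 and 8 in the sgNT libraries. Of the 50-base stretches in this 100 bp peak 48.0% were unique in the genome, and in the main peak of its near-copy H4C12 33.1% were, so reads from these promoters may be missing or shared and both values are uncertain. Under 90% of the stretches were unique in 5 of the 66 peaks. Over the other 58 tested peaks the median log2 fold change was −0.27.

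On the high side no peak had an unadjusted p under 0.05 in edgeR. A peak 199 bp from a start of the core H4 gene H4C8 (chr6:26286065-26286229) had 3.09 and 6.85 CPM in the sgFLT3-DE-1 libraries and 3.01 and 3.20 in the sgNT libraries (log2 fold change 0.72, SE 0.52, unadjusted p = 0.17 in edgeR). The main peak of H4C8 had an estimate of −0.22 (SE 0.27). A minor peak at H2AC4 had 5.56 and 6.41 CPM in the sgFLT3-DE-1 libraries and 2.34 and 7.21 in the sgNT libraries (log2 fold change 0.38, SE 0.47, unadjusted p = 0.43 in edgeR). A minor peak at H2AC12 and H2BC12 had 8.03 and 7.08 CPM in the sgFLT3-DE-1 libraries and 5.35 and 7.61 in the sgNT libraries (log2 fold change 0.23, SE 0.39, unadjusted p = 0.57 in edgeR). The first H4C16 peak, whose levels were given above, had a log2 fold change of 0.15 (SE 0.26, unadjusted p = 0.58 in edgeR). A minor peak at H3C7 had 3.09 and 6.41 CPM in the sgFLT3-DE-1 libraries and 2.67 and 6.81 in the sgNT libraries (log2 fold change 0.08, SE 0.50, unadjusted p = 0.87 in edgeR). At these 5 peaks above 0 the groups overlapped. The 26 peaks that were no main peak were short, with a median of 161.5 bp and 5.23 CPM, and 16 of the 22 tested were below 0.

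Genes that supply, chaperone or replace these histones were described from lists chosen with earlier results of these data known. As background, 61.4% of all tested coding promoter peaks had estimates below 0, with a median of −0.08. All 18 genes that regulate or process histone mRNA had a tested promoter peak, and of their 35 peaks 27 had estimates below 0 and 8 above, with a median of −0.16 and 0 past FDR 0.05 in edgeR. The smallest p was at a peak shared by ZNF473, a zinc finger protein of histone mRNA 3′ end processing, and VRK3. It had 11.4 and 11.5 CPM in the sgFLT3-DE-1 libraries and 23.4 and 18.4 in the sgNT libraries (log2 fold change −0.87, SE 0.29, unadjusted p = 0.0061 in edgeR). On the other side CSTF2, a subunit of the cleavage stimulation factor, had 17.9 and 12.8 CPM in the sgFLT3-DE-1 libraries and 11.03 and 12.01 in the sgNT libraries (log2 fold change 0.40, SE 0.32, unadjusted p = 0.21 in edgeR).

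The genes listed as replacement histones, several of which are expressed throughout the cell cycle, had 15 tested peaks in 8 of 10 genes. Of these peaks 13 were below 0, with a median of −0.24 and 0 past FDR 0.05. H2AZ2, an H2A.Z gene, had the smallest p among the lower ones, with 17.9 and 23.7 CPM in the sgFLT3-DE-1 libraries and 30.7 and 24.02 in the sgNT libraries (log2 fold change −0.39, SE 0.27, unadjusted p = 0.16 in edgeR). MACROH2A2 had 3.71 and 5.31 CPM in the sgFLT3-DE-1 libraries and 1.00 and 2.80 in the sgNT libraries (log2 fold change 1.30, SE 0.60, unadjusted p = 0.039 in edgeR). This peak was shallow, with 12 and 24 counts in the sgFLT3-DE-1 libraries and 3 and 7 in the sgNT libraries. The groups did not overlap, where 13.7% of all tested peaks were apart in this direction. Chaperones had 28 tested peaks in 11 of 14 genes, 17 of them below 0, with a median of −0.06 and 0 past FDR 0.05. That was close to coding promoter peaks at large. CHAF1A, a subunit of the factor that deposits new H3 and H4 at replication forks, had 15.8 and 13.3 CPM in the sgFLT3-DE-1 libraries and 21.7 and 25.2 in the sgNT libraries (log2 fold change −0.70, SE 0.28, unadjusted p = 0.019 in edgeR). SSRP1, part of the FACT complex, had 34.6 and 35.6 CPM in the sgFLT3-DE-1 libraries and 32.4 and 23.2 in the sgNT libraries (log2 fold change 0.33, SE 0.26, unadjusted p = 0.22 in edgeR).

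Of the B precursor genes that mark the labelled cell type, PAX5 had promoter peaks with 22.9 and 36.7 CPM in the sgFLT3-DE-1 libraries and 27.4 and 43.2 in the sgNT libraries. EBF1 had 31.8 and 33.8 CPM in the sgFLT3-DE-1 libraries and 34.8 and 32.8 in the sgNT libraries, and VPREB1, CD79B and IGLL1 also had a peak. CD79A and BLNK had no peak. T cell genes had a peak in 2 of 4 (31.5 and 39.4 CPM, against 33.8 and 34.4 in sgNT). Nearly all of that was at CD247 (30.6 and 38.3 CPM, against 33.8 and 34.4 in sgNT). CD3E had 0.93 and 1.11 CPM in the sgFLT3-DE-1 libraries and 0 in both sgNT libraries, and CD3D and CD2 had no peak. Myeloid genes had a peak in 3 of 4 (54.1 and 75.2 CPM, against 56.8 and 82.1 in sgNT). Erythroid genes had one in 2 of 4, at 583 and 246 CPM in the sgFLT3-DE-1 libraries and 66.8 and 50.4 in the sgNT libraries. Nearly all of it was at HBB (573 and 239 CPM, against 60.8 and 45.2 in sgNT), whereas the defining erythroid factors GATA1 and KLF1 had no peak. The part of this signal in the histone values was not tested.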

How the data were processed

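ATAC-seq was run on SEM cells with dCas9-KRAB and sgFLT3-DE-1 or sgNT, 2 libraries each. The authors deposited raw counts per consensus peak, merged over both guides, on hg19. The sources differ on how: the extract protocol names cutadapt 1.18 and Bowtie2 2.2.9, and BWA, Trim Galore 0.4.4, MACS2 2.1.1.20160309, SAMtools 1.2 and bedtools 2.24.0 stand in the submitters' processing notes. The supplementary notes describe uniquely mapped reads, which would leave out reads from repeated copies. No shift of reads for the transposase is described in the sources used. Peaks were joined to starts in GENCODE release 44 lifted to GRCh37. Genes listed under older symbols only, such as those for H2AC18 and H4C2, fall outside the rule.

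Counts were tested with edgeR 4.0.16 in R 4.3.3 (filterByExpr, TMM factors, quasi-likelihood test, group as the only term), with Benjamini-Hochberg adjustment over 82558 peaks and a threshold of FDR 0.05. The code was tested on simulated data. Each standard error was obtained by dividing the size of the log2 fold change by the root of its F statistic. With 2 libraries per guide, an exact permutation test over libraries could not reach the threshold and was not run. DESeq2 1.42.0, limma-voom 3.58.1, other scalings, filters, windows, a GC correction, a replicate block and the omission of each library were tried. Members, gene lists and tests were chosen with earlier results of these data known. In full, values are given for the 5 smallest p in each direction, the highest peak of each type and locus, members outside the clusters, and the smallest p of each pathway list and direction. Values of some listed genes are not reported here.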

Additional observations from a re-analysis of the deposited data

How the results depend on the processing

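No histone peak passed FDR 0.05 in edgeR under any alternative run, nor in DESeq2 or limma-voom. The median log2 fold change stayed below 0 in all of them, and leaving out each library gave −0.59 to −0.13, with 43 to 60 peaks below 0. In those runs the median of coding promoter peaks was −0.19 to −0.06. Requiring a mean count of at least 50 left 29 histone peaks, 25 of them below 0, because fewer were tested. The median level was 19.0 CPM for peaks over a start, and 38.9 as CPM per kb, which is another scale. With the replicate number as a block, the median was −0.30 and 54 peaks were below 0. In that edgeR fit 0 histone peaks passed FDR 0.05, while 74 of all tested peaks did. There 13 histone peaks had an unadjusted p under 0.05, but the share of all tested peaks at that threshold was not worked out. Deviations of same-numbered libraries correlated at 0.39, but the labels do not say what the numbers share, so they were not taken as pairs. Medians by type and stretch stayed below 0 in all 126 values from alternatives. The planned ratio between chromosome 1 and chromosome 6 was not run, since no chromosome 1 member had a peak. Depth limits the shallow peaks, such as those of H4C11 and H1-10.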
